A study of Homo sapiens with 12 samples.

Results

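The zinc transporter genes and their regulator were followed in drug-treated kidney cells. The set held 4 genes of the zinc exporter family SLC30 (SLC30A1, SLC30A5, SLC30A7 and SLC30A10). It also held 5 genes of the zinc importer family SLC39 (SLC39A1, SLC39A6, SLC39A7, SLC39A10 and SLC39A14) and MTF1, which encodes the zinc-responsive transcription factor. The genes were taken by name, and all 10 were present among the 58735 genes of the count table.

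HK-2 is an established, immortalised human proximal tubular epithelial cell line. Reads of poly(A) RNA were counted in 12 samples, 3 each of a control group given water, and of cells treated with 75 mg I/mL of the X-ray contrast agent iohexol, 5 µM of the platinum drug cisplatin or 4 mM of the antibiotic vancomycin. Each drug was applied for 48 h. The labels give no exposure time of the water and do not say whether samples of 1 group came from separate cultures, so p-values measure the spread between these samples, which may be technical. The design asks how each of these nephrotoxic drugs changed gene expression against the control group, and all 3 comparisons share the same 3 control samples.

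Zinc enters the cytosol through SLC39 (ZIP) proteins, from outside the cell or from organelles, and leaves it through SLC30 (ZnT) proteins, across the plasma membrane or into the secretory pathway. When cytosolic zinc rises, MTF1 binds metal response elements in promoters and raises transcription of the metallothionein genes, whose products bind zinc, and of SLC30A1. Proximal tubule cells reabsorb zinc from the filtrate and are rich in metallothionein.

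Total counts were between 14057282 and 18177109 per sample. Levels are given as CPM, counts scaled to a common library size by the totals and the TMM factors of edgeR. These factors were lowest with vancomycin (0.885 to 0.897) and highest with cisplatin (1.12 to 1.13), with the other groups between 0.961 and 1.04. Scaling by library size only, without these factors, moved the median gene by 0.22 on the log2 scale in cisplatin against control, by 0.13 in cisplatin against iohexol, by -0.21 in vancomycin against iohexol and by -0.33 in vancomycin against cisplatin. Control replicate 1 and iohexol replicate 3 stood apart. Their deviations from the group means correlated with each other (Pearson r = 0.81 across 8706 genes, which are not independent replicates) and inversely with the GC content of the transcripts (Spearman rho = -0.77 and -0.81). Some other libraries deviated with GC content the other way, among them iohexol replicate 2 (Spearman rho = 0.70) and vancomycin replicate 3 (0.61). Of 10 proximal tubule markers, 2 were plainly present. GGT1 had group means of 147 to 363 CPM and DPP4 of 71.3 CPM with cisplatin to 566 CPM with vancomycin. SLC22A6 was at 0 counts throughout, LRP2, the gene of megalin, had at most 0.108 CPM in any group mean, and the other 6 had at most 4.81 CPM. The 10 markers summed to 307 to 352 CPM in the control samples, 339 to 392 CPM with iohexol, 238 to 251 CPM with cisplatin and 913 to 954 CPM with vancomycin. The summed level of 4 leukocyte markers lay between 0.815 and 3.69 CPM, and that of 4 endothelial markers between 0 and 4.21 CPM. The 5 epithelial markers summed to 762 to 852 CPM in the control samples and to 634 to 770 CPM with iohexol. Their sums were 1230 to 1281 CPM with cisplatin and 1228 to 1346 CPM with vancomycin. With each of these 2 drugs 3 of 4 tested were higher than in the control group, beside 29.2% and 29.0% of all genes tested. EPCAM was lower, with log2 fold changes of -1.51 and -0.44. The 5 fibroblast markers summed to 105 to 129 CPM in the control, iohexol and cisplatin samples and to 241 to 277 CPM with vancomycin. There 4 of 4 tested were higher than in the control group, with log2 fold changes of 1.14 for LUM, 1.27 for DCN, 1.12 for PDGFRB and 0.41 for COL1A1, and COL1A2 was at 0. Their part in the results was not tested. In bulk RNA, fewer cells of a type and less RNA per cell cannot be told apart.

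A gene was called when its adjusted p (edgeR's quasi-likelihood test, Benjamini-Hochberg over all genes tested) was under 0.05, and counted as a DEG when its log2 fold change was also above 1 or below -1. Of the 10 genes, 9 had enough reads to be tested. With iohexol, 2 of the 9 were higher (SLC39A6 and SLC39A14) and 1 was lower (SLC30A1), against 11.2% higher and 9.77% lower of all 15657 genes tested. SLC30A1 was the only DEG among them, against 5.28% of all genes tested. Without iohexol replicate 3 the number called was 5 instead of 3. With cisplatin, 3 of the 9 were higher (SLC30A1, SLC39A1 and SLC39A6) and 2 were lower (SLC39A10 and SLC39A14), with none a DEG. The background in that comparison was 29.2% higher, 30.6% lower and 16.3% DEGs among 15876 genes. The number called fell from 5 to 3 without control replicate 2 or 3 or without cisplatin replicate 1 or 3. With vancomycin, 2 were higher (SLC39A1 and SLC39A7) and 3 were lower (SLC30A1, SLC39A10 and SLC39A14), and SLC39A7 was a DEG. The background there was 29.0% higher, 28.8% lower and 18.5% DEGs among 15819 genes. The members' shares lie near these backgrounds with cisplatin and vancomycin. The median log2 fold change of the 9 was 0.06 with iohexol, 0.11 with cisplatin and 0.08 with vancomycin, beside medians of 0.01, 0.01 and -0.01 over all genes tested.

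**Figure D1:**
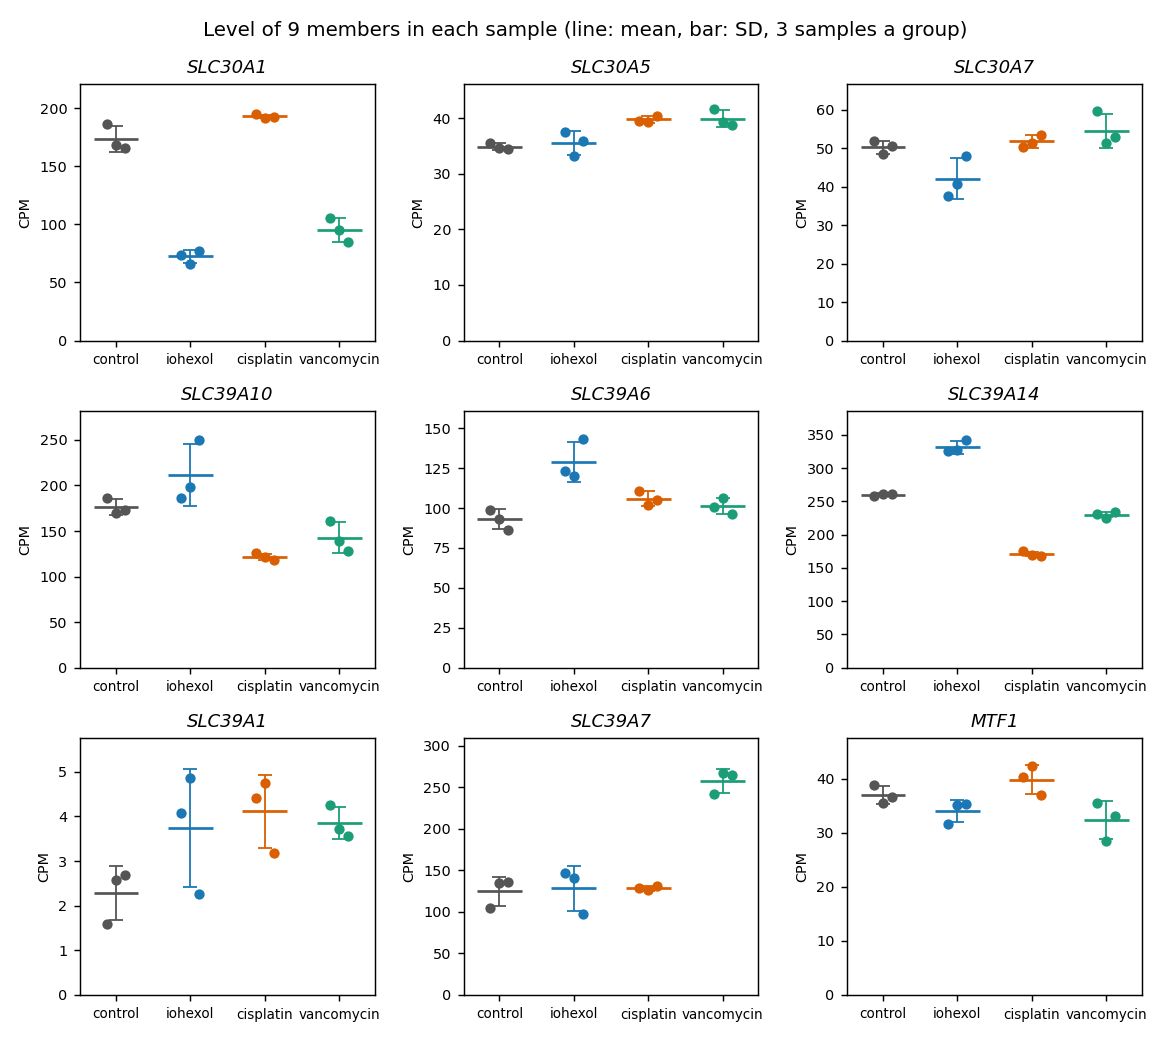
Level in CPM (vertical axis, from 0) of the 9 tested genes in each of the 12 samples, with the group mean as a line and the SD as a bar. SLC30A1 lay at 65.9 to 105 CPM in the 6 iohexol and vancomycin samples and at 165 to 194 CPM in the 6 control and cisplatin samples, and SLC39A7 lay at 241 to 268 CPM with vancomycin, above every other sample.

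SLC30A1 encodes the zinc exporter of the plasma membrane. It lies on chromosome 1 (GRCh38, chr1:211571568-211578742, minus strand), and none of its exon bases is shared with another gene. The control samples had 186, 169 and 165 CPM. Iohexol samples had 73.9, 65.9 and 77.1 CPM and vancomycin samples 105, 94.9 and 84.8 CPM. All 6 lay below all 3 control samples. The cisplatin samples, at 194, 191 and 192 CPM, lay just above the control samples.

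Against the control mean of 173 ± 11.0 CPM (SD, n = 3), the iohexol mean of 72.3 ± 5.78 CPM was 2.37-fold lower, with a log2 fold change of -1.25 (SE 0.10, edgeR adjusted p = 3.48e-06). The vancomycin mean of 94.9 ± 10.1 CPM gave a log2 fold change of -0.91 (SE 0.10, edgeR adjusted p = 1.81e-08), a fold of 1.88 that fell short of the DEG threshold. Both calls held under each alternative tried, with log2 fold changes from -1.30 to -1.17 and from -0.99 to -0.83. The cisplatin difference was small, at 0.15 (SE 0.06, edgeR adjusted p = 0.0461), and it was lost in 7 of 14 alternatives, with adjusted p up to 0.196. These included leaving out control replicate 2 or 3 or any cisplatin sample, where the value was 0.11 to 0.16. With library size only it was 0.37 (edgeR adjusted p = 4.92e-05).

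Between drugs, SLC30A1 was higher with cisplatin than with iohexol by 1.42 on the log2 scale (SE 0.09, edgeR adjusted p = 6.07e-11). Vancomycin lay below cisplatin, with a log2 fold change of -1.02 (edgeR adjusted p = 3.38e-09). It lay above iohexol by 0.39 (SE 0.09, edgeR adjusted p = 8.45e-04), a difference that was 0.19 (edgeR adjusted p = 0.0746) when samples were scaled by library size only.

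The promoter of SLC30A1 is shown because this gene and the metallothioneins are the classical MTF1 targets. The 7-base core of the metal response element, TGCACNC or TGCGCNC, was searched on both strands of RefSeq promoter windows (GRCh38.p14, from 250 bases before to 50 bases after the gene's start). Capitals mark each core, and on the opposite strand it reads GNGTGCA or GNGCGCA. No matches overlapped. The RefSeq start of SLC30A1 lies upstream of the gene's end in the count table. The MT2A window lies inside the span of that gene in the count table (chr16:56608199-56609497). The windows of SLC39A10 also lie inside its span there (chr2:195575977-195737702). The 250 bases before the start are printed for SLC30A1 (chr1:211579162-211579411, minus strand) and for the metallothionein gene MT2A (chr16:56608334-56608583, plus strand), followed by the second core of SLC30A1 in its transcribed part (chr1:211579121-211579147, minus strand).

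SLC30A1: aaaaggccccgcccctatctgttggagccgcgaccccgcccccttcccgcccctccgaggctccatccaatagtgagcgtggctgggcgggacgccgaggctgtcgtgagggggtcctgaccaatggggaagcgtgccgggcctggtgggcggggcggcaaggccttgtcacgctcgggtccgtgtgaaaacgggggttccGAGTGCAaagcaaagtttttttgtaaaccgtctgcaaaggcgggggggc
MT2A: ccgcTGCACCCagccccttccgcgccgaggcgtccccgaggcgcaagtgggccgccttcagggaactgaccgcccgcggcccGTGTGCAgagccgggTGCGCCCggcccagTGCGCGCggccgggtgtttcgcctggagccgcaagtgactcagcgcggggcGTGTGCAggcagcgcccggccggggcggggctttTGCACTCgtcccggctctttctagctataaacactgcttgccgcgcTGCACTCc
SLC30A1, second core: agaccgggccGAGTGCAgctgccgtgg

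SLC30A1 held 2 cores, both on the opposite strand, at -49 to -43 and at 25 to 31 relative to the start. MT2A held 8, of which 7 lie in the stretch printed, and the other metallothionein genes with a window held 8 (MT1H), 4 (MT1X), 3 (MT1B) and 3 (MT4). MT1H and MT4 had 0 counts in every sample, and MT1B had 2 counts, in vancomycin replicate 3 only. Of all 35116 promoter windows, 29.6% held at least 1 core, 8.60% at least 2 and 0.601% at least 4. The GC content was 68% in the window of SLC30A1 and 72% in that of MT2A, beside a median of 58.7% over all windows. SLC39A6 held 1, SLC39A1 and SLC39A10 held 1 in the second of 2 windows each, and SLC30A5, SLC30A7, SLC30A10, SLC39A7 and MTF1 held none. The window of SLC39A14 was not used here. A match is a description of the letters, and binding was not measured.

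SLC30A5 and SLC30A7 move zinc into the early secretory pathway, where it is built into enzymes such as alkaline phosphatases. SLC30A5, which acts in a complex with SLC30A6, had 34.5 to 35.5 CPM in the control samples, 33.3 to 37.5 CPM with iohexol, 39.3 to 40.4 CPM with cisplatin and 38.9 to 41.6 CPM with vancomycin. The cisplatin and vancomycin samples lay above all control samples, yet neither difference passed the test. The log2 fold change was 0.19 with cisplatin (95% interval 0.02 to 0.35, edgeR adjusted p = 0.0505) and 0.15 with vancomycin (95% interval -0.06 to 0.37, edgeR adjusted p = 0.216). The cisplatin value was called in 5 of 14 alternatives, one of them without control replicate 1 (0.20, edgeR adjusted p = 0.0265) and another with library size only (0.41, edgeR adjusted p = 2.50e-04). With that scaling SLC30A7 was also called with cisplatin (0.26, edgeR adjusted p = 0.00515). In all, 12.4% of the 31-base sequences of SLC30A5 also occur in other genes.

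SLC30A7 had 48.5 to 51.8 CPM in the control samples and 50.4 to 59.6 CPM over the cisplatin and vancomycin samples. Iohexol samples had 37.5, 40.8 and 48.0 CPM, below all controls. Against control the log2 fold change with iohexol was -0.24 (SE 0.11, edgeR adjusted p = 0.147). The third iohexol sample was one of the 2 libraries that stood apart, and the value was -0.34 without it (edgeR adjusted p = 0.0173) and -0.32 without both (edgeR adjusted p = 0.00477). Direct contrasts placed SLC30A7 higher with cisplatin than with iohexol by 0.30 (SE 0.10, edgeR adjusted p = 0.0138), lost without iohexol replicate 1, iohexol replicate 2 or cisplatin replicate 3 (0.22 to 0.28, adjusted p up to 0.088). Vancomycin exceeded iohexol by 0.38 (SE 0.10, edgeR adjusted p = 0.00269), which became 0.17 (edgeR adjusted p = 0.141) with library size only.

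SLC30A10, known mainly as a manganese exporter, had 0 counts in 10 of the 12 samples, 1 count in cisplatin replicate 1 and 2 counts in vancomycin replicate 3. A count of 0 allows up to 3 counts, or 0.177 to 0.218 CPM at these depths, counting error only. No difference was detectable at this depth.

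**Figure D2:**
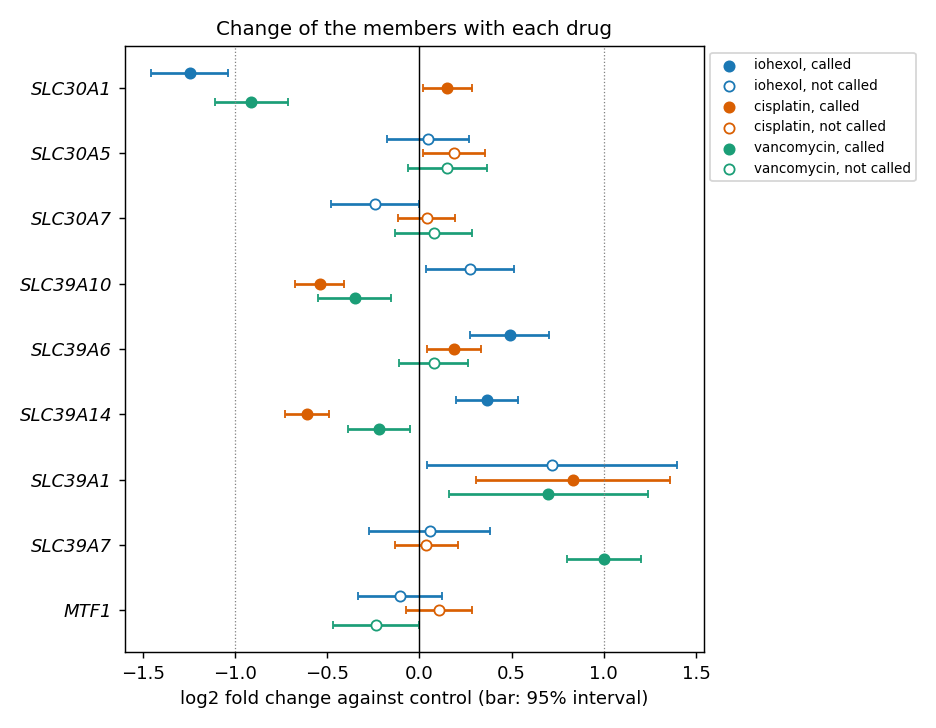
Log2 fold change against the control group (horizontal axis) of the 9 tested genes with iohexol, cisplatin and vancomycin, with 95% intervals as bars, filled circles for genes called at adjusted p under 0.05, and dotted lines at -1 and 1. SLC30A1 with iohexol (-1.25) and SLC39A7 with vancomycin (1.00) lie past the dotted lines, while SLC39A14 lies at 0.37 with iohexol and at -0.61 with cisplatin.

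Among the importers, SLC39A14 carries zinc and also iron and manganese across the plasma membrane. Its control samples had 258, 261 and 262 CPM. Iohexol raised it to 325, 327 and 342 CPM, cisplatin lowered it to 175, 169.7 and 169 CPM, and vancomycin samples had 231, 226 and 234 CPM. The 4 groups did not overlap in any sample. Log2 fold changes were 0.37 with iohexol (SE 0.08, edgeR adjusted p = 0.00525) and -0.61 with cisplatin (SE 0.06, edgeR adjusted p = 5.94e-08), the latter -0.39 with library size only. The vancomycin value of -0.22 (SE 0.08, edgeR adjusted p = 0.0257) was lost without control replicate 2 or 3 or vancomycin replicate 2 or 3 (-0.22 to -0.20, adjusted p up to 0.0873). The iohexol value was 0.35 without control replicate 2, with an adjusted p of 0.0573.

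Direct contrasts separated the drugs at SLC39A14. Cisplatin lay below iohexol with a log2 fold change of -0.95 (edgeR adjusted p = 3.17e-10), and vancomycin lay below iohexol with -0.53 (edgeR adjusted p = 1.27e-06). Vancomycin exceeded cisplatin by 0.43 (SE 0.07, edgeR adjusted p = 1.24e-05), but by 0.09 (edgeR adjusted p = 0.213) with library size only.

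SLC39A6 and SLC39A10 encode closely related zinc importers that can form a complex at the plasma membrane. SLC39A10 had 187, 170.1 and 173 CPM in the control samples. The cisplatin samples, at 126, 121 and 118 CPM, and the vancomycin samples, at 161, 139 and 128 CPM, all lay below them. Iohexol samples had 186, 198 and 249.7 CPM and overlapped the control samples.

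The log2 fold change of SLC39A10 was -0.54 with cisplatin (SE 0.06, edgeR adjusted p = 1.15e-06) and -0.35 with vancomycin (SE 0.10, edgeR adjusted p = 0.00298), and both calls held in 14 of 14 alternatives, the cisplatin value at -0.32 with library size only. With iohexol it was 0.28 (SE 0.11, edgeR adjusted p = 0.096), or 0.35 (edgeR adjusted p = 0.0412) with library size only. Its highest sample there was the one that stood apart, and without both such libraries the value was 0.18 (edgeR adjusted p = 0.024). Cisplatin lay below iohexol with a log2 fold change of -0.80 (edgeR adjusted p = 1.65e-06), and vancomycin with -0.57 (edgeR adjusted p = 8.36e-05). Vancomycin and cisplatin differed by 0.23 (95% interval 0.02 to 0.44, edgeR adjusted p = 0.0551), a direction that turned to -0.11 with library size only. Without vancomycin replicate 3 this difference was 0.31 (edgeR adjusted p = 0.0244).

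SLC39A6 had 99.0, 93.4 and 86.5 CPM in the control samples and 123, 120.4 and 143 CPM with iohexol, without overlap. Its log2 fold change with iohexol was 0.49 (SE 0.10, edgeR adjusted p = 0.0042), and the call held in 15 of 15 alternatives. Cisplatin samples, at 111, 102 and 105 CPM, also lay above the controls, and the log2 fold change was 0.19 (SE 0.07, edgeR adjusted p = 0.0291). That call was lost in 6 of 14 alternatives, among them without control replicate 2 or 3 or cisplatin replicate 1 or 3 (0.13 to 0.20, adjusted p up to 0.152). With library size only the value was 0.41 (edgeR adjusted p = 6.35e-05). Vancomycin samples, at 101, 106 and 96.4 CPM, overlapped the controls, with a log2 fold change of 0.08 (95% interval -0.11 to 0.27, edgeR adjusted p = 0.472).

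In the direct contrasts SLC39A6 was lower than with iohexol under both other drugs. The log2 fold change was -0.28 for cisplatin (edgeR adjusted p = 0.00799) and -0.35 for vancomycin (edgeR adjusted p = 0.00158). With library size only the first was -0.16 (edgeR adjusted p = 0.117) and the second -0.56. Against the control group, this gene and its relative SLC39A10 therefore carried values of opposite sign with cisplatin, 0.19 and -0.54.

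SLC39A7 releases zinc from the endoplasmic reticulum and Golgi into the cytosol. It lies on chromosome 6 (chr6:33200445-33204439, plus strand), and 8.58% of its exon bases are shared with RXRB on the other strand, a region whose reads cannot be assigned without a known strand setting. Vancomycin samples had 241, 268 and 265 CPM, above every sample of the other groups. The control samples had 105, 135 and 135 CPM, the iohexol samples 147, 140.3 and 97.6 CPM and the cisplatin samples 128, 126 and 131 CPM, and these 3 groups overlapped. The lowest control and the lowest iohexol value came from the libraries that stood apart, and the longest transcript of SLC39A7 had a GC content of 55.1%.

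With vancomycin SLC39A7 rose by 1.00 on the log2 scale (SE 0.10, edgeR adjusted p = 4.96e-09), or 2.00-fold. Vancomycin exceeded iohexol and cisplatin by 1.01 each (SE 0.12, edgeR adjusted p = 6.41e-07 and 4.17e-07), the difference from cisplatin being 0.67 with library size only. The rise against control was called in 14 of 14 alternatives at 0.89 to 1.05, a range that spans the DEG threshold of 1. With iohexol the log2 fold change was 0.06 (95% interval -0.27 to 0.39, edgeR adjusted p = 0.824) and with cisplatin 0.04 (95% interval -0.13 to 0.21, edgeR adjusted p = 0.711), values whose sign turned when single libraries were left out. With library size only the cisplatin value was 0.25 (edgeR adjusted p = 0.0128).

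SLC39A1 encodes a widely expressed importer of the plasma membrane, but its level here is uncertain. In GENCODE 29 only 1047 of its 3388 exon bases lie in no other gene, since it overlaps CREB3L4 and AL358472.7, and 63.8% of its 31-base sequences occur in other genes. It received 22 to 77 counts per sample. Control samples had 1.60, 2.57 and 2.70 CPM, and all cisplatin and vancomycin samples lay above these, between 3.19 and 4.74 CPM. Iohexol samples had 4.08, 4.86 and 2.27 CPM and overlapped the controls.

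The log2 fold change of SLC39A1 was 0.83 with cisplatin (SE 0.25, edgeR adjusted p = 0.00796), 0.70 with vancomycin (SE 0.26, edgeR adjusted p = 0.0254) and 0.72 with iohexol (SE 0.31, edgeR adjusted p = 0.125). The vancomycin call was lost without control replicate 1 (0.50, edgeR adjusted p = 0.126) or vancomycin replicate 1 (0.62, edgeR adjusted p = 0.0823). Iohexol gave 0.98 without iohexol replicate 3 (edgeR adjusted p = 0.011) and 0.78 without both libraries that stood apart (edgeR adjusted p = 0.0304).

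MTF1, the transcription factor, differed little. Control samples had 38.9, 35.5 and 36.5 CPM, iohexol samples 31.6, 35.0 and 35.4 CPM, cisplatin samples 40.2, 42.2 and 36.9 CPM and vancomycin samples 35.5, 28.4 and 33.1 CPM. Iohexol and vancomycin samples were all below the control samples, although the nearest samples almost met, and cisplatin samples overlapped them. None of the 3 differences passed the test. Log2 fold changes were -0.10 with iohexol (95% interval -0.33 to 0.13, edgeR adjusted p = 0.532), 0.11 with cisplatin (95% interval -0.07 to 0.28, edgeR adjusted p = 0.30, but 0.32 and edgeR adjusted p = 0.00299 with library size only) and -0.23 with vancomycin (edgeR adjusted p = 0.0805). The last was called without vancomycin replicate 1 (-0.30, edgeR adjusted p = 0.0432), with library size only (-0.31, edgeR adjusted p = 0.0216) and in the fit with a replicate block (-0.24, edgeR adjusted p = 0.0286). MTF1 was lower with vancomycin than with cisplatin by the direct contrast, with a log2 fold change of -0.30 (SE 0.10, edgeR adjusted p = 0.0143), which was lost without cisplatin replicate 2 (-0.25) or vancomycin replicate 2 (-0.21, edgeR adjusted p = 0.0987) and was -0.63 with library size only.

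Across the direct contrasts, 2 of the 9 genes were higher (SLC30A1 and SLC30A7) and 3 were lower (SLC39A6, SLC39A10 and SLC39A14) with cisplatin than with iohexol, beside 26.0% higher and 27.9% lower of all 17073 genes tested. For vancomycin against iohexol, 3 were higher (SLC30A1, SLC30A7 and SLC39A7) and 3 were lower (SLC39A6, SLC39A10 and SLC39A14), beside 29.0% and 27.6%. For vancomycin against cisplatin, 2 were higher (SLC39A7 and SLC39A14) and 2 were lower (SLC30A1 and MTF1), beside 34.7% and 30.0%. SLC30A5 and SLC39A1 were called in none of the 3 direct contrasts.

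**Figure D3:**
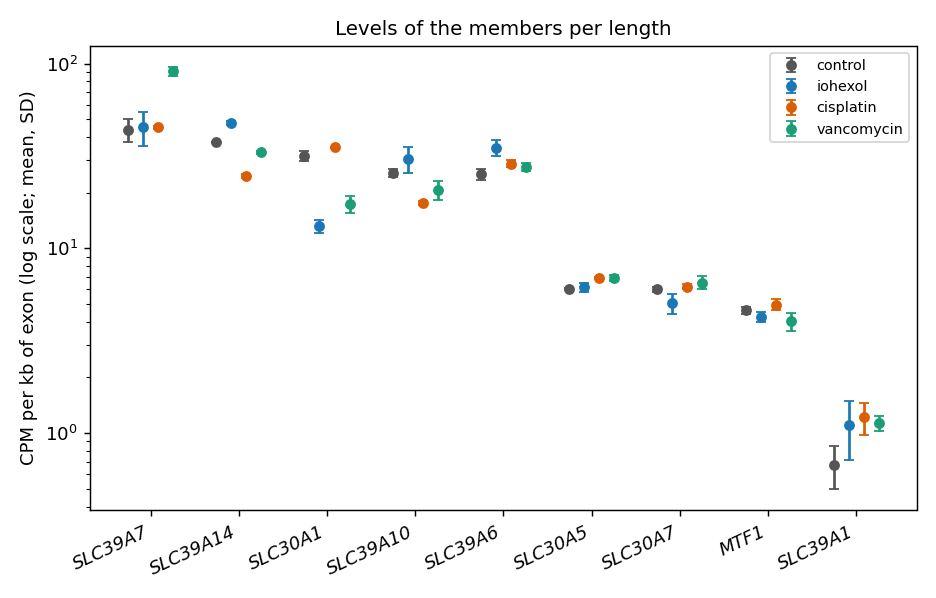
Level per length (vertical axis, CPM per kb of exon, log scale) of the 9 tested genes in the 4 groups, as the mean of 3 samples with the SD as a bar. SLC39A7 with vancomycin stands above all other values at 90.7, and SLC30A1 lies at 31.7 in the control group and 13.2 with iohexol.

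Levels of different genes were compared per kb of exon. In the control group SLC39A7 (43.9 ± 6.13 CPM per kb, SD, n = 3) and SLC39A14 (37.5 ± 0.326) came first, and their samples overlapped. SLC30A1 (31.7 ± 2.02) followed, then SLC39A10 (25.5 ± 1.27) and SLC39A6 (25.2 ± 1.70), which overlapped. SLC30A5 (6.03 ± 0.0976) and SLC30A7 (6.00 ± 0.20) overlapped as well, and MTF1 (4.61 ± 0.217) and SLC39A1 (0.675 ± 0.178) came last before SLC30A10. The place of SLC39A1 is uncertain in every group, since only 1047 of the 3388 exon bases divided by lie in no other gene.

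With cisplatin SLC30A1 stood second in level per length (35.2 ± 0.279 CPM per kb), behind SLC39A7, and the samples of no pair of neighbours overlapped. With iohexol it stood at 13.2 ± 1.06, behind all the importers but SLC39A1, and the 4 genes above it formed a run in which each overlapped the next. With vancomycin it again came after those 4 importers (17.3 ± 1.84), overlapping SLC39A10 (20.6 ± 2.45), and SLC39A7 stood apart at the top (90.7 ± 5.07 against 33.2 ± 0.603 for SLC39A14).

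The 10 genes of the SLC30 family summed to 69.0 ± 4.48 CPM per kb in the control group, 51.7 ± 3.80 with iohexol, 69.4 ± 0.538 with cisplatin and 46.6 ± 3.79 with vancomycin. SLC30A1 made up 45.9% ± 0.747 of this exporter sum in the control group, 25.5% ± 0.733 with iohexol, 50.7% ± 0.486 with cisplatin and 37.1% ± 0.932 with vancomycin, without overlap between groups. The 14 genes of the SLC39 family summed to 173 ± 5.61 CPM per kb in the control group and to 201 ± 5.79, 156 ± 1.59 and 216 ± 4.49 with iohexol, cisplatin and vancomycin. SLC39A7 made up 25.4% ± 2.81 of the importer sum in the control group and 42.0% ± 1.70 with vancomycin (SD, n = 3 samples each).

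Other genes of both families were counted beside these 10. Of 6 other SLC30 genes 3 were tested against control, and of 9 other SLC39 genes 6 were tested. With iohexol none of these 9 was called, beside 11.2% higher and 9.77% lower of all genes tested. With cisplatin 1 was higher (SLC39A3) and 3 were lower (SLC30A9, SLC39A11 and SLC39A13), beside 29.2% higher and 30.6% lower of all genes tested. Log2 fold changes were 0.51 for SLC39A3, -0.48 for SLC30A9 and -0.25 for SLC39A13 (edgeR adjusted p = 1.16e-04, 5.45e-05 and 0.0222). The SLC39A13 value was near the 0.22 by which library size only moved the median gene in that comparison. SLC39A11 was a DEG, with 2.48, 1.48 and 3.13 CPM against 13.3, 14.2 and 12.3 CPM in the control samples, a log2 fold change of -2.48 (SE 0.20, edgeR adjusted p = 7.43e-09). With vancomycin SLC39A11 was higher by 0.62 (SE 0.13, edgeR adjusted p = 2.43e-04). SLC30A6, the partner of SLC30A5, and SLC30A9 were lower with vancomycin, with log2 fold changes of -0.63 and -0.83 (edgeR adjusted p = 1.72e-05 and 5.66e-07), beside 29.0% higher and 28.8% lower of all genes tested.

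**Figure D4:**
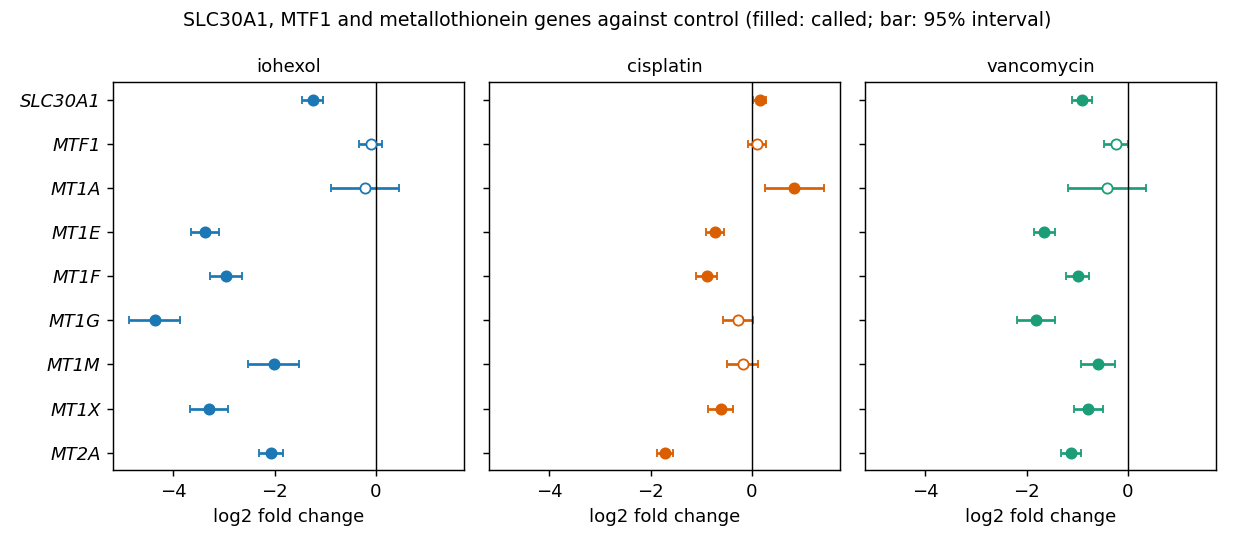
Log2 fold change against the control group (horizontal axis, 95% intervals as bars, filled circles called at adjusted p under 0.05) of SLC30A1, MTF1 and the 7 metallothionein genes tested, in 1 panel per drug. Of the 7 metallothionein genes, 6 lie below 0 and are called with iohexol and with vancomycin, while MTF1 is shown with open circles in all 3 panels. Of all genes tested, 9.77% were lower with iohexol and 28.8% with vancomycin.

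Metallothionein genes, the other classical MTF1 targets, were tested in 7 of 11 cases. With iohexol 6 were lower and none higher, beside 9.77% lower and 11.2% higher of all genes tested. All 6 were DEGs (MT1E, MT1F, MT1G, MT1M, MT1X and MT2A), beside 5.28% of all genes tested. The median log2 fold change was -2.96, beside 0.01 over all genes tested. MT1E fell from 218, 221 and 181 CPM in the control samples to 22.6, 17.3 and 19.2 CPM, a log2 fold change of -3.37 (SE 0.13, edgeR adjusted p = 1.68e-08). MT2A fell from 1144, 1077 and 913 CPM to 269, 217 and 246 CPM, a log2 fold change of -2.08 (SE 0.11, edgeR adjusted p = 2.07e-07). The 6 calls held in 15 of 15 alternatives each. These genes are close copies of one another, and up to 24.1% of the 31-base sequences of the 6 genes occur in other genes.

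With vancomycin the 6 lower genes had a smaller shift, the median of the 7 being -0.99, and MT1E (-1.65), MT1G (-1.82) and MT2A (-1.12) were DEGs (edgeR adjusted p = 1.45e-12, 9.91e-09 and 3.47e-10). Of all genes tested with vancomycin, 28.8% were lower and 18.5% were DEGs. With cisplatin 4 of the 7 were lower and 1, MT1A, was higher, beside 30.6% lower, 29.2% higher and 16.3% DEGs among all genes tested. The call of MT1A was lost without control replicate 3 or cisplatin replicate 2. MT1A had 39 to 45 counts per cisplatin sample and 18 to 24 per control sample. Of its 31-base sequences, 18.85% also occur in other genes. MT2A was the DEG of that comparison, at 313, 334 and 306 CPM and a log2 fold change of -1.72 (SE 0.07, edgeR adjusted p = 2.65e-12). SLC30A1 and MT2A thus had values of opposite sign with cisplatin, 0.15 and -1.72, and the same sign with iohexol and vancomycin. The median of the 7 was -0.61 with cisplatin, and MT1G, not called in that comparison, was called with the replicate block (-0.26, edgeR adjusted p = 0.048).

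Over the 12 samples, the genes whose log2 CPM was most like that of SLC30A1 among 11538 genes with a mean of at least 5 CPM were JCAD (Pearson r = 0.99), NCL (0.98) and CCDC80 (0.96). JCAD, for example, had a mean of 91.2 CPM in the control group, 40.2 with iohexol, 102 with cisplatin and 54.9 with vancomycin. For SLC39A10 they were SNX13 (0.98), ZFR (0.97) and ZNF605 (0.97), and SLC39A14 stood 121st with r = 0.92. MTF1 stood 946th for SLC30A1 with r = 0.69. The 12 samples fall into 4 groups, so these values describe likeness of the group patterns.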

How the data were processed

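Poly(A) RNA of 12 samples was sequenced from NEBNext Ultra libraries. The authors deposited whole-number counts of reads per gene, without normalization, for 58735 genes in 1 table. The submitters' processing notes name CASAVA 1.8, fastp, HISAT2 2.0.5, featureCounts 1.5.0-p3 and DESeq2 1.20.0. The genome build, annotation release and strand setting are not given in the sources used here, but 58690 genes have the position they have in GENCODE 29 (GRCh38), whose gene models were used for exon overlap, transcript GC content and shared 31-base sequences.

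The counts were fitted in edgeR 4.0.16 under R 4.3.3 (TMM, filterByExpr at 10 counts minimum and 15 in total, glmQLFit and glmQLFTest), in a separate fit of each drug with the 3 control samples, and for contrasts between drugs in a fit of all 12 samples (17073 genes). Adjusted p-values (Benjamini-Hochberg) cover every gene tested. The SE was the size of the log2 fold change divided by the square root of F. CPM values used the TMM factors of the 12-sample fit, and log2 CPM a prior count of 2. CPM per kb used the gene length of the table.

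The members and lists were chosen with earlier results of these data known. All 10 members are named, and of the other lists (SLC30, SLC39, metallothionein, metal transporter and zinc ectoenzyme genes) each DEG is named in addition to counts, and called SLC30 and SLC39 genes were named after their values were seen. For SLC30A1 and SLC39A10 the 3 most alike genes are named. Alternatives were DESeq2 1.42.0, limma-voom (limma 3.58.1), RLE factors, library size only, other filters, a replicate block, another set of samples in the fit, and each sample left out. The fit without both control replicate 1 and iohexol replicate 3 was added after seeing the data. By the numbers in the titles, same-numbered samples deviated together in control against cisplatin (r = 0.216, 0.106 and 0.174) and in control against vancomycin (0.331, 0.0999 and 0.458). The numbers may pair the samples in these 2 comparisons, which was not tested. In cisplatin against vancomycin the values were 0.312, 0.00831 and 0.0755. Some matches across numbers were higher, such as vancomycin replicate 1 with iohexol replicate 3 (r = 0.479). In control against iohexol the values differed in sign (-0.626, 0.386 and -0.639). The scripts were tested on simulated counts. Promoter windows came from RefSeq (GRCh38.p14), where 9 of the 10 members had an entry that was used and 5 of 11 metallothionein genes had one. Python 3.11.15 with matplotlib 3.10.9 made the figures.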

Additional observations from a re-analysis of the deposited data

How the results depend on the processing

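Over the single-gene values of the 9 tested members, alternatives left 558 on the same side of the threshold with the same direction, 19 passed it newly, 29 no longer passed it and 5 changed sign. These values cover every comparison with control. Between drugs they cover only the called contrasts and SLC39A10 in vancomycin against cisplatin, so most uncalled contrasts are left out. The alternatives for single genes in the contrasts between drugs were chosen after seeing the data. The number of members called with iohexol, 3, was 6 without both control replicate 1 and iohexol replicate 3, and 2 to 5 when single samples were left out. The number with cisplatin, 5, was 9 with library size only, 3 with all genes of at least 1 count, 3 in the fit of all 12 samples, and 3 to 6 when single samples were left out. Library size only lifts the cisplatin samples relative to the others by its construction, and for the other settings the cause was not tested. The counts with vancomycin and in the 3 direct contrasts stayed within 1.5 times. The sign changes were all at values that were not called. SLC39A7 with iohexol, 0.06, ranged from -0.0582 to 0.222 when single samples were left out (-0.0582 without control replicate 1, -0.0562 without iohexol replicate 1 and -0.0224 without iohexol replicate 2). SLC39A7 with cisplatin ranged from -0.0776, without control replicate 1, to 0.0852, and SLC39A10 between vancomycin and cisplatin was -0.105 with library size only.

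With a replicate block, 3 members were called with iohexol, 5 with cisplatin and 6 with vancomycin, where MTF1 was called at -0.24 (edgeR adjusted p = 0.0286), and it changed no other call of a member against control. Over all genes the block took the calls with iohexol from 1754 higher and 1529 lower to 1181 and 915, with cisplatin from 4643 and 4857 to 4778 and 4991, and with vancomycin from 4595 and 4563 to 4858 and 4821. Depth left SLC30A10 untested.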

Other observations

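Zinc-dependent ectoenzymes, which receive their metal through SLC30A5 and SLC30A7 in the secretory pathway, were counted beside them. Placental alkaline phosphatase, ALPP, rose from a control mean of 0.415 ± 0.171 CPM (SD, n = 3) to 4.92 ± 1.66 CPM with iohexol and 6.83 ± 0.558 CPM with cisplatin, log2 fold changes of 3.54 and 3.99 (edgeR adjusted p = 7.27e-05 and 1.81e-09). Its close copy ALPG rose by 4.30 with iohexol (edgeR adjusted p = 2.73e-04), and reads of these copies may be split between them. ALPG had 0 to 2 counts per control sample and 24 to 34 per iohexol sample, so its fold change rests on very few control reads. The ectonucleotidase NT5E fell by 1.36 on the log2 scale with iohexol (edgeR adjusted p = 5.11e-05). ENPP3 went from 6.25 ± 0.293 CPM to 41.7 ± 4.23 CPM with vancomycin and 1.01 ± 0.551 CPM with cisplatin, log2 fold changes of 2.69 and -2.63 (edgeR adjusted p = 2.98e-14 and 3.55e-07). Of the 7 ectoenzyme genes, 6 were tested with iohexol (3 higher, 1 lower) and 4 each with cisplatin (1 higher, 3 lower) and vancomycin (3 higher, none lower). The call of ENPP1 with iohexol (0.47, edgeR adjusted p = 0.0349) was lost with the replicate block (edgeR adjusted p = 0.0805). The shares over all genes tested were 11.2% higher and 9.77% lower with iohexol, 29.2% and 30.6% with cisplatin, and 29.0% and 28.8% with vancomycin, and DEGs made up 5.28%, 16.3% and 18.5%.

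Among 11 other metal transporter genes, 9 were tested with iohexol (4 higher, none lower), 10 with cisplatin (3 higher, 5 lower) and 9 with vancomycin (3 higher, 2 lower), to be read beside the same shares over all genes. The call of SLC11A2 with iohexol (0.28, edgeR adjusted p = 0.0365) was lost with the replicate block (edgeR adjusted p = 0.156). With vancomycin SLC11A2 was not called (0.19, edgeR adjusted p = 0.073), but it was called with that block (edgeR adjusted p = 0.0334). The copper-exporting ATPase gene ATP7B fell by 1.33 with cisplatin on the log2 scale (edgeR adjusted p = 3.23e-07), and the iron exporter gene SLC40A1 rose by 1.19 with vancomycin (edgeR adjusted p = 9.69e-05). ATP2C2 was higher by 1.61 with iohexol and 1.82 with cisplatin (edgeR adjusted p = 0.0198 and 0.00264) at no more than 1.35 CPM in any group mean, and the iohexol call was lost in 5 of 14 alternatives, with adjusted p up to 0.0864. SLC31A2 was higher by 2.14 with cisplatin and 2.81 with vancomycin (edgeR adjusted p = 0.00206 and 9.36e-05), but 63.1% of its exon bases are shared with FKBP15 and its group means were at most 1.49 CPM.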
